A study of Homo sapiens with 6 samples.

Results

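Class II and class IV histone deacetylases (HDACs) are 7 genes, which are HDAC4, HDAC5, HDAC7 and HDAC9 of class IIa, HDAC6 and HDAC10 of class IIb and HDAC11 of class IV. They were taken by symbol through the Ensembl identifiers of GENCODE release 29, and all 7 were found among the 32364 genes of the table. mRNA sequencing was performed in Kasumi-1, a human line of acute myeloid leukemia with the t(8;21) fusion of RUNX1. Of the 6 libraries, 3 came from cells incubated with 0.5 µM I13, an indole-3-butyric acid derived HDAC inhibitor, for 48 h, and 3 from control cells kept for the same 48 h. The study's methods describe the control as the solvent (DMSO) at the concentration of the I13 solution, and the labels name it only as control. Both groups are the same cell line with no genetic change between them. The labels do not say whether the replicates were separate cultures. The study describes its experiments in general as independent repeats, and its legend for the mRNA sequencing figure speaks of 3 independent experiments. The p-values measure the spread between these libraries, which may be technical if the replicates were not separate cultures.

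HDACs remove acetyl groups from lysines of histones and other proteins. Of the class I enzymes, HDAC1, HDAC2 and HDAC3 work in the nucleus within corepressor complexes. Class IIa proteins carry a catalytic domain of low activity and a long N-terminal region, which binds MEF2 transcription factors. Kinases phosphorylate this region, 14-3-3 proteins bind it, and the protein leaves the nucleus. HDAC6 is mainly cytoplasmic and deacetylates alpha-tubulin, cortactin and HSP90. HDAC10 deacetylates polyamines, and HDAC11 removes long fatty acyl groups from lysines. An HDAC inhibitor acts on the enzymes and not on their mRNAs. The study gives inhibition values of I13 for HDAC1, HDAC2, HDAC3 and HDAC6, and of these only HDAC6 is a member. The comparison here addresses a separate question, the level of the members' mRNAs after 48 h of I13.

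HDAC9 had the lowest I13 to control ratio of the 7 genes, and its start regions are shown first because it is itself a known target of MEF2. The sequences are from RefSeq promoter windows (GRCh38.p14), which run from 250 bases before to 50 bases after a transcript start. The capitals mark a MEF2 element in the first sequence, CCAAT boxes on either strand in the second and a GC box (GGGCGG) read on the other strand in the third. The first is the upstream start of HDAC9, chr7:18086575-18086826 on the plus strand. The second precedes an internal start of HDAC9 within an intron, chr7:18495460-18495709 on the plus strand. The third precedes the first exon of HDAC4, another class IIa gene, chr2:239401655-239401899 on the minus strand, and is given for comparison. Only 1 kind of motif is in capitals in each sequence. The window of the upstream HDAC9 start also held 3 GC boxes, against 1 in this HDAC4 window. Before the HDAC9 start lie 2 of these 3, which are left in lower case in the sequence shown.
HDAC9 upstream start: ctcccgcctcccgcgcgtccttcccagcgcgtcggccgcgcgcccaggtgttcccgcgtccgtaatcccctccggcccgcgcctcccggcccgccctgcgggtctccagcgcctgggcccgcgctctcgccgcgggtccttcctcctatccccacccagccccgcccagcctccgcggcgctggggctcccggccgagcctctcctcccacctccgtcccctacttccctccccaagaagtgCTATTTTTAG
HDAC9 internal start: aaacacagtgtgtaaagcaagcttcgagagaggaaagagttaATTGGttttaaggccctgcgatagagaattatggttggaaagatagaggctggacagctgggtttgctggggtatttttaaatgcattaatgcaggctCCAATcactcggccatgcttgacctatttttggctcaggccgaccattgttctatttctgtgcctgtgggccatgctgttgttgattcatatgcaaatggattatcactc
HDAC4 upstream start: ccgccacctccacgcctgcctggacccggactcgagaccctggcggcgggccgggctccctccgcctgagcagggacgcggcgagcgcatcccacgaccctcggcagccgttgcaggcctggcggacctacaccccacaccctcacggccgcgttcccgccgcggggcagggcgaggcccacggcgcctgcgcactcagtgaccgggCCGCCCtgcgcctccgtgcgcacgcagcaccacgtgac

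Windows were found for 6 of the 7 genes, 16 windows in all, with none for HDAC5. The MEF2 element was searched by its consensus on both strands, and it was present in 1 of the 16 windows and in 2.99% of all 35116 windows. It begins 8 bases before the upstream RefSeq start of HDAC9, which lies before the first GENCODE exon. The GC box was present in 7 of the 16 windows and in 45% of all windows. The CCAAT box was present in 6 of the 16 and in 34.6% of all windows. Some windows of HDAC6 and of HDAC9 overlap, so the same boxes count in each window that holds them. Each motif was searched on its own, without regard to overlap with another. The window of the upstream HDAC9 start held 41 CpG dinucleotides, and that of the internal start held 5, against a median of 14 over all windows. The single windows of HDAC7, HDAC10 and HDAC11 held 33, 40 and 30 CpG. These matches describe the letters of the windows and not binding. The FPKM table has 1 row for HDAC9, which joins 29 annotated transcripts, so fragments from its starts could not be told apart.

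The libraries held between 15281052 and 17221345 mapped fragments, as recovered from the steps of the FPKM values. FPKM is the number of fragments on a gene per length of exon and per total of mapped fragments. For most genes this length joins the exons of all annotated transcripts, so a comparison between genes also depends on the annotated length. HDAC1 and HDAC2 had means of 58.4 and 13.4 FPKM from means of 3805.8 and 3412.5 fragments, over 3963 and 15461 exon bases. Orders and shares of level between genes are given on this scale only. The 8 markers of the myeloid line were above 0 in every library, with MPO, a granule peroxidase, between 10241 and 12450 FPKM. Of 12 markers of other cells, 8 were in the table. COL1A1, ALB and PPBP were at 0 in all 6 libraries, CD3D and CD3E were at or below 0.376 FPKM, and EPCAM was between 20.8 and 26.5 FPKM with overlap between the groups. CD3D, a T cell marker, was between 0.313 and 0.376 FPKM in the control and between 0.129 and 0.141 FPKM in the I13 libraries, and its part in any result was not tested. The summed level of these 8 was between 21.5 and 27.3 FPKM in the control libraries and between 22.4 and 26.7 FPKM in the I13 libraries. Control replicate 3 and I13 replicate 2 stand apart from the other 4 libraries across genes, and no batch is named in the labels. For each member the log2 difference in the other 4 libraries and that between the 2 libraries of the pair are also given.

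The members had a higher and a lower range of expression. HDAC7 and HDAC6 were the highest, HDAC5 and HDAC4 followed, and these 4 genes held between 94.3% and 95.6% of the summed FPKM of the 7 genes in each library. The mean over 6 libraries was 6.88 FPKM for HDAC7, 5.90 for HDAC6, 3.58 for HDAC5 and 3.52 for HDAC4. It was 0.502 FPKM for HDAC9, 0.422 for HDAC11 and 0.110 for HDAC10. Neighbours in this order were separate in all 6 libraries between HDAC6 and HDAC5, between HDAC4 and HDAC9 (a ratio of 7.02) and between HDAC11 and HDAC10. The 6 values of HDAC7 and HDAC6 overlapped, although HDAC7 was the higher of the pair within every library. HDAC5 was above HDAC4 in 4 of 6 libraries, so this order did not hold beyond the spread. HDAC9 was above HDAC11 in 4 of 6 libraries. The exceptions were I13 replicates 1 and 2, and in the 3 control libraries the values of HDAC9 lay wholly above those of HDAC11.

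**Figure D1:**
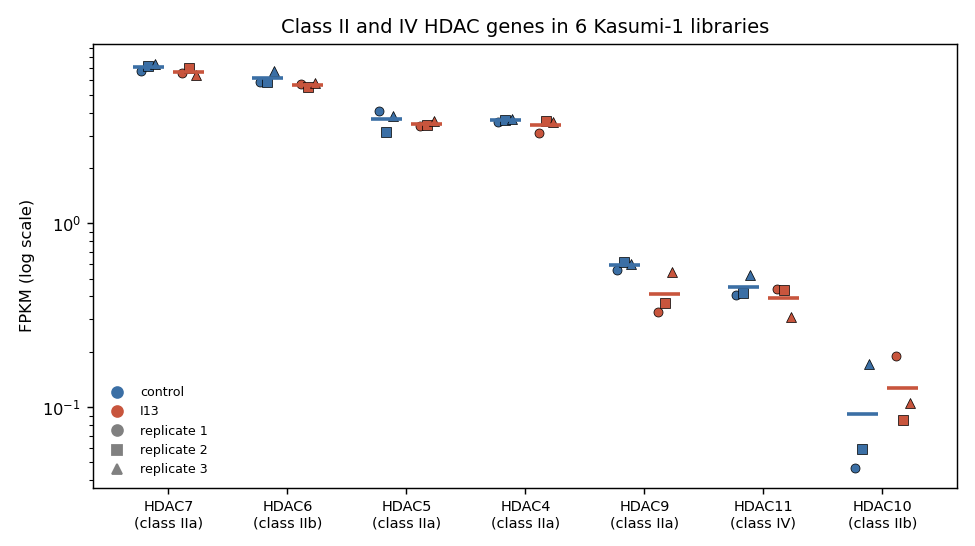
FPKM (log scale) of the 7 class II and IV HDAC genes in each library, with 1 symbol per replicate, blue for control and red for I13, and bars at the group means. HDAC7, HDAC6, HDAC5 and HDAC4 lie between 3.11 and 7.33 FPKM and HDAC9, HDAC11 and HDAC10 between 0.0469 and 0.613 FPKM.

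Of the class I genes, HDAC1, HDAC2 and HDAC3 had a higher FPKM than all 7 members, and HDAC8 lay between HDAC6 and HDAC5 in mean FPKM. The values of HDAC8 did not give whole fragments on its joined exon length, so its place depends on the length used. It had 323 to 389 recovered fragments in a library, and HDAC5 had 411 to 532. HDAC1, a subunit of the NuRD, Sin3 and CoREST complexes, had a mean of 58.4 FPKM. HDAC3, a nuclear corepressor enzyme, had 13.7 FPKM in control and 14.3 FPKM in I13 cells. HDAC2, the close relative of HDAC1, had a mean of 13.4 FPKM over the 6 libraries. HDAC8, which deacetylates cohesin, had 3.78 FPKM in control and 4.22 FPKM in I13 cells. HDAC1 was between 7.64 and 9.62 times the FPKM of HDAC7 in each library. Class II and IV genes held 19.6%, 19.5% and 20.3% of the summed FPKM of the 11 HDAC genes in control replicates 1, 2 and 3. They held 17.8%, 18.3% and 17.8% in I13 replicates 1, 2 and 3. All 3 I13 values lay below the control values. The mean share was 19.8% ± 0.419 (SD, n = 3) in the control and 18.0% ± 0.243 (SD, n = 3) in the I13 libraries. This share joins a lower numerator with a higher denominator, with class II and IV genes summing to between 20.9 and 22.9 FPKM in control and between 19.7 and 20.4 FPKM in I13 libraries. The summed class I genes were between 86.2 and 89.7 FPKM in control and between 90.8 and 93.6 FPKM in I13 libraries. It is a description with no test, since it is a score over chosen genes.

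For the comparison of I13 with control, log2(FPKM + 0.1) was fitted with limma over 18726 genes, those whose mean FPKM reached 0.1. All 7 members passed this minimum, HDAC10 only just with a mean of 0.110. The log2 fold change was below 0 for 6 of the 7 members, against 48.2% of all genes tested. Their median was -0.088, against 0.006 over all genes tested. No member passed the adjusted p of 0.05 (0% of all genes tested by limma and 0.0362% by voom on recovered fragments). The unadjusted p was under 0.05 for 0 of 7 members by limma (5.14% of all genes) and for 1 of 6 by voom (5.35% of all genes). This was HDAC9, which was lower in I13 (2.8% of all genes by voom). When the fold threshold of 0.58 on the log2 scale was added, 0 of 7 passed by limma (2.38% of all genes). The I13 values lay below all control values for 2 of the 7 members, HDAC9 and HDAC6 (4.64% of all genes tested). Of the 4 class I genes, 3 had a log2 fold change above 0, from 0.06 to 0.15, and none passed either p by either test. Whether the classes differ was not tested, since no test over chosen genes was made.

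**Figure D2:**
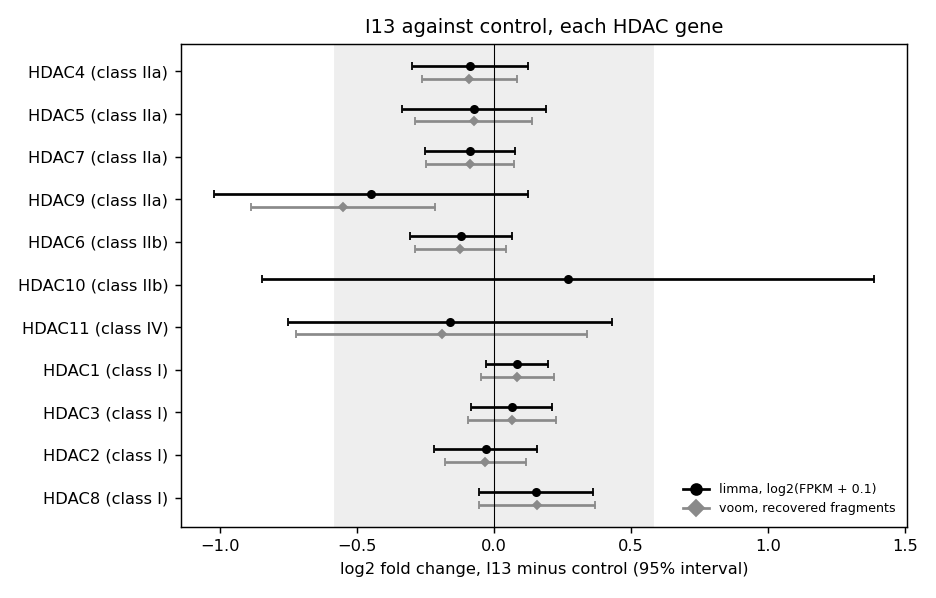
Log2 fold change of I13 minus control for each HDAC gene, with 95% intervals, from limma on log2(FPKM + 0.1) (black circles) and from voom on recovered fragments (grey diamonds, none for HDAC10). The grey band marks changes under 0.58, the study's fold threshold, and only the voom interval of HDAC9, from -0.89 to -0.22, leaves out 0.

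HDAC9 (ENSG00000048052) lies on the plus strand of chromosome 7 from 18086949 to 19002416 (GRCh38, GENCODE 29), with 43 merged exons of 16827 bases. Its product represses MEF2 target genes, and a shorter form of it lacks the catalytic domain. Its expression was 0.559, 0.613 and 0.599 FPKM in control replicates 1, 2 and 3. In the I13 libraries it was 0.328, 0.370 and 0.541 FPKM. I13 replicate 3 was close to control replicate 1, and the other two I13 libraries were well below the control range.
These values rest on 162, 177 and 167 fragments in the control and 88, 104 and 139 fragments in the I13 libraries. The group means were 0.590 ± 0.0280 FPKM (SD, n = 3) in control and 0.413 ± 0.112 FPKM (SD, n = 3) in I13 cells, a ratio of 0.700. The spread between I13 libraries, a coefficient of variation of 27.2%, was wider than the 9.52% that counting alone gives at this depth. In the control libraries it was 4.74%, with 7.70% from counting alone.
By limma the log2 fold change of HDAC9 was -0.45 (standard error 0.24, 95% interval from -1.02 to 0.12, adjusted p = 0.976). By limma's voom on the fragments it was -0.55 (95% interval from -0.89 to -0.22, adjusted p = 0.432). It did not pass the correction by either test. The exact permutation test, two-sided, gave p = 0.1, the smallest that 3 against 3 libraries allow. The log2 difference was -0.39 in the 4 libraries and -0.57 between I13 replicate 2 and control replicate 3. Without I13 replicate 3 the limma value was -0.62, with an unadjusted p under 0.05, and without I13 replicate 1 it was -0.33. At equal depth the I13 fragments were 0.696 times the control fragments, with a 95% interval from 0.604 to 0.801 that covers counting error only.

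HDAC6 (ENSG00000094631), on the plus strand of the X chromosome from 48801377 to 48824982, was the other member without overlap. The enzyme holds a pair of catalytic domains and a ubiquitin-binding zinc finger. It had 5.90, 5.86 and 6.73 FPKM in control replicates 1, 2 and 3 and 5.69, 5.48 and 5.76 FPKM in I13 replicates 1, 2 and 3. The gap between the groups was small, and control replicate 3 was the library farthest from the rest.
The means were 6.16 ± 0.491 FPKM (SD, n = 3) and 5.65 ± 0.147 FPKM (SD, n = 3), from 917 to 1161 fragments in a library. By limma its log2 fold change was -0.12 (standard error 0.079, 95% interval from -0.31 to 0.06, adjusted p = 0.983). The exact permutation test gave p = 0.1, again the smallest possible. Without control replicate 3 the limma value was -0.06. In the 4 libraries the difference was -0.04, and it was -0.29 in the pair, which holds both the highest control and the lowest I13 value. The interval over all 6 libraries leaves out a change of more than 0.31 in either direction on the log2 scale.

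**Figure D3:**
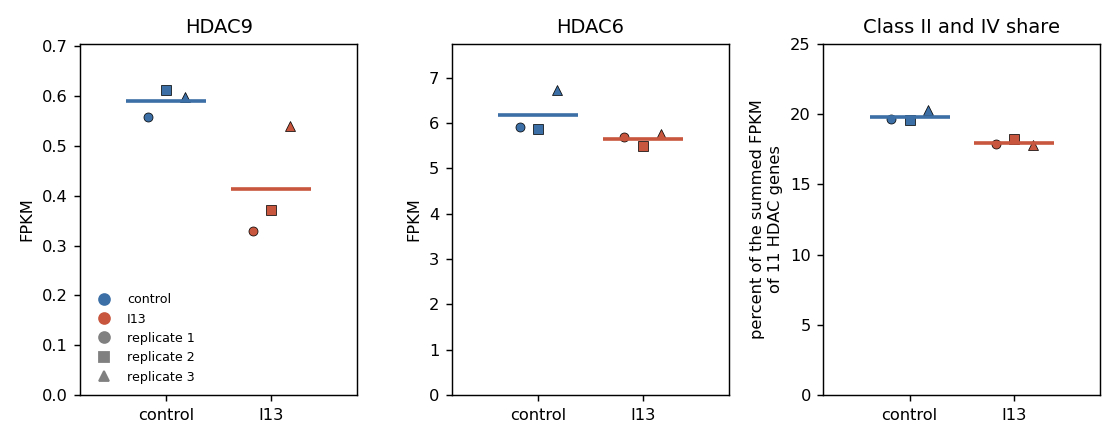
FPKM of HDAC9 and HDAC6 in each library and the percent of the summed FPKM of the 11 HDAC genes held by class II and IV, with 1 symbol per replicate and bars at the group means. In all 3 panels every I13 library lies below every control library, with I13 replicate 3 of HDAC9 (0.541 FPKM) closest to the control range.

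The other class IIa genes had smaller differences. HDAC7 (ENSG00000061273), a repressor of MEF2 target genes in lymphoid and endothelial cells, is on chromosome 12, minus strand, from 47782722 to 47833132. Its FPKM was 6.75, 7.21 and 7.33 in the control and 6.58, 7.004 and 6.43 in the I13 libraries. Of the I13 libraries, 2 lay below every control library and replicate 2 lay within the control range.
HDAC4 (ENSG00000068024), known for its part in bone and muscle, is on chromosome 2, minus strand, from 239048168 to 239401654. HDAC4 levels were 3.56, 3.64 and 3.68 FPKM in the control and 3.11, 3.58 and 3.54 FPKM in the I13 libraries. I13 replicate 1 alone was far below the control range, which was narrow (a coefficient of variation of 1.70%, with 3.49% from counting alone).
HDAC5 (ENSG00000108840), a close relative of HDAC4 and HDAC9, is on chromosome 17, minus strand, from 44076746 to 44123702. Its FPKM values were 4.06, 3.15 and 3.83 in the control and 3.39, 3.43 and 3.60 in the I13 libraries. All I13 values lay inside the control range.
The log2 fold change by limma was -0.09 for HDAC7 (95% interval from -0.25 to 0.08, adjusted p = 0.983). It was also -0.09 for HDAC4 (-0.30 to 0.12, adjusted p = 0.993). For HDAC5 it was -0.07 (-0.34 to 0.19, adjusted p = 1.000). In the 4 libraries the log2 difference was -0.10 for HDAC7, -0.11 for HDAC4 and -0.03 for HDAC5. In the pair it was -0.07, -0.04 and -0.15, in the same order of genes. None of the limma intervals reached the fold threshold of 0.58, so a change of that size lay outside the 95% interval for each of the 3 genes and for HDAC6. The p-values do not show that the levels were equal. Within the 4 libraries, both I13 values lay below both control values for HDAC4, HDAC6, HDAC7 and HDAC9. This is 4 of the 7 members, against 16.9% of all genes tested. HDAC9 and HDAC6 had no overlap over all 6 libraries, so their separation in the 4 was fixed beforehand. The 4 libraries were set apart by these same data and not by a label, so the count is a description only. HDAC2 of class I also had both I13 values below both control values in the 4 libraries. Both I13 values lay above both control values for HDAC10 and for HDAC1 and HDAC3 of class I. The share of all genes in this direction was not counted, so no reading is given. For HDAC10 the values rest on 4 and 5 control fragments and on 15 and 8 I13 fragments.

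HDAC11 (ENSG00000163517), the single class IV enzyme, lies on the plus strand of chromosome 3 from 13479724 to 13506424. It had 0.407, 0.419 and 0.526 FPKM in the control and 0.440, 0.431 and 0.310 FPKM in the I13 libraries. The groups overlapped, and I13 replicate 3 was the lowest library. With 25 to 46 fragments per library, the spread within groups, 14.5% and 18.5%, was close to that of counting alone, 15.7% and 17.3%. The log2 fold change was -0.16 (95% interval from -0.75 to 0.43, adjusted p = 1.000 by limma), so neither direction nor a change past the fold threshold could be told at this depth. The log2 difference was -0.13 in the 4 libraries and -0.24 in the pair.

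HDAC10 (ENSG00000100429) is on chromosome 22, minus strand, from 50245183 to 50251405. It was covered by 4, 5 and 14 fragments in the control and 15, 7 and 8 fragments in the I13 libraries, or 0.0469, 0.0589 and 0.171 FPKM against 0.190, 0.0848 and 0.106 FPKM. Control replicate 3 and I13 replicate 1 were high in otherwise low groups, which overlapped. It was the only member with a log2 fold change above 0 (0.27, 95% interval from -0.85 to 1.38, adjusted p = 1.000 by limma). The log2 difference was 0.68 in the 4 libraries and -0.55 in the pair, so its direction turned between the sets. At equal depth the ratio of fragments was 1.39, with a 95% interval from 0.779 to 2.50 for counting error only.
MAPK12, a stress-activated kinase gene on the same strand from 50245450 to 50261825, shares 2763 of the 4951 exon bases of HDAC10 (55.8%). HDAC10 values came out as whole fragments on the full 4951 bases, so its FPKM is divided by the shared bases too. How fragments on the shared bases were counted is not stated in the sources used here, and their part in the low level of HDAC10 was not tested. MAPK12 itself had 948, 1020 and 1122 fragments in the control and 1024, 1215 and 1141 in the I13 libraries, with overlap between the groups. Its log2 fold change was 0.22 (95% interval from -0.02 to 0.45, adjusted p = 0.948 by limma).
Several genes on the opposite strand share exon bases with other members. AC062017.1, a noncoding gene at the start of HDAC4, shares 0.756% of its exon bases. The table holds 10 fragments of it over the 6 libraries against 663 to 834 in each library for HDAC4. AC004466.1 shares 963 exon bases with HDAC7 (9.70%) and had 5 fragments over the 6 libraries, and SLC48A1, a heme transporter gene, shares 32. HDAC11-AS1 shares 330 exon bases with HDAC11 (6.25%) and was not found among the genes of the table. The kit marks strand, but the strand setting of the counting is not stated in the sources used here.

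The genes around the members were read from lists chosen with earlier results known. Of 75 partner genes, 72 were in the table and 64 were tested. Their log2 fold change was below 0 for 33 and above 0 for 31, with a median of -0.009. By limma 2 had an unadjusted p under 0.05, both lower (2.59% of all genes were lower at this p and 2.55% higher), and 0 passed the adjusted p. By voom, 3 of 62 had an unadjusted p under 0.05, all lower, and 0 passed the adjusted p. Over all genes this voom share was 5.35% in either direction and 2.8% lower. In 5 of the 64 genes every I13 library lay below every control library (4.64% of all genes tested), and in 0 every one lay above (4.88% of all genes).

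MEF2 factors, the main partners of class IIa proteins, showed log2 fold changes between -0.07 and 0.04 in the 3 tested genes. MEF2C was the highest of them, with 12.1 ± 0.243 FPKM (SD, n = 3) in the control and 12.4 ± 1.10 FPKM (SD, n = 3) in the I13 libraries. MEF2B was under the minimum. Of 17 kinases that can act on class IIa proteins 11 were tested, 5 with a log2 fold change below 0 and 6 above, and 0 passed an unadjusted p of 0.05. CAMK2G, a calcium and calmodulin dependent kinase, had the highest level of these with 14.9 ± 0.301 and 15.0 ± 0.310 FPKM (SD, n = 3 each). The 6 tested 14-3-3 genes stayed between -0.03 and 0.03 on the log2 scale, and YWHAQ was the highest with 134 ± 2.70 FPKM (SD, n = 3) in control and 137 ± 1.54 FPKM (SD, n = 3) in I13 cells. Of 7 tested corepressor genes 5 were below and 2 above 0, and 0 passed.
Of the 5 tested target genes of MEF2 and class IIa proteins, 4 were below 0 and 1 above, with a median of -0.13, and 0 passed by limma. JUN, a subunit of AP-1, was the highest, with 11.5 ± 1.12 FPKM (SD, n = 3) in control and 12.7 ± 1.18 FPKM (SD, n = 3) in I13 cells. IRF8, a transcription factor of monocytes, was picked out after its values had been seen. It had 1.09, 1.21 and 1.63 FPKM in the control and 0.876, 0.917 and 1.08 FPKM in the I13 libraries. The groups of IRF8 did not overlap, by a narrow gap (log2 fold change -0.40, adjusted p = 0.954 by limma and adjusted p = 0.788 by voom).

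For HDAC6, 16 substrate and partner genes were tested, 7 with a log2 fold change below 0 and 9 above, and 1 had an unadjusted p under 0.05. This was CTTN, which encodes cortactin, an actin-binding protein deacetylated by HDAC6. CTTN had 1.83, 2.05 and 1.52 FPKM in the control and 1.36, 1.25 and 1.24 FPKM in the I13 libraries, and the groups did not overlap. Its log2 fold change was -0.45 (standard error 0.15, adjusted p = 0.890 by limma and adjusted p = 0.418 by voom), so it did not pass the correction.
HSP90AB1, a chaperone gene, was the highest of this list with 887 ± 5.58 FPKM (SD, n = 3) in control and 892 ± 4.88 FPKM (SD, n = 3) in I13 cells. Among the alpha-tubulin genes, the log2 fold changes of TUBA1B and TUBA1C were 0.01 and 0.001.
In polyamine metabolism, the field of HDAC10, 5 of 10 genes were below and 5 above 0. ODC1, the first enzyme of the pathway, was the highest with 145 ± 2.77 FPKM (SD, n = 3) in control and 151 ± 9.15 FPKM (SD, n = 3) in I13 cells. SMS, spermine synthase, had 61.8, 61.0 and 58.7 FPKM in the control and 57.5, 52.4 and 56.0 FPKM in the I13 libraries. These groups did not overlap, the unadjusted p was under 0.05 by limma, and the log2 fold change was -0.13 (standard error 0.051, adjusted p = 0.947 by limma). SAT1, which acetylates spermidine and spermine, was picked out after its values had been seen, with a log2 fold change of -0.22 (adjusted p = 0.947 by limma and adjusted p = 0.769 by voom).
Of 7 partners of HDAC11, 6 were tested, 3 below and 3 above 0, and 0 passed. SHMT2, a serine hydroxymethyltransferase that HDAC11 deacylates, was the highest with 39.7 ± 1.03 and 39.4 ± 2.19 FPKM (SD, n = 3 each).

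**Figure D4:**
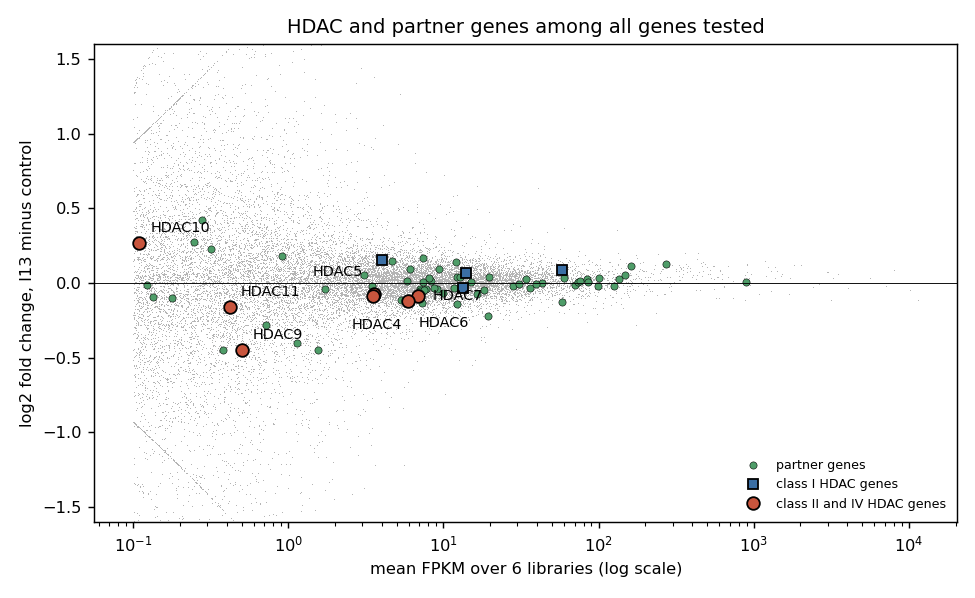
Log2 fold change of I13 minus control against the mean FPKM (log scale) for all 18726 genes tested (grey), with the class II and IV HDAC genes in red, class I in blue and partner genes in green. The axis leaves out 324 genes beyond 1.6 in either direction. HDAC9 at -0.45 lies below the other members, and the cloud of all genes widens at its low level.

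For the 4 members whose mean FPKM reached 1, the genes most like them in pattern over the 6 libraries were found by the root mean square difference of centred log2 values among 11516 other genes. For HDAC4 these were COG1, SPN and KMT2B, with differences of 0.0125, 0.0183 and 0.0190. For HDAC7 they were SSBP3, CUX1 and ACTN1, from 0.0155 to 0.0170. For HDAC6 they were GAB2, HPSE and SEMA4C, from 0.0313 to 0.0342. For HDAC5 they were ZSCAN2, CCDC92 and JDP2, from 0.0261 to 0.0400. The members' own spread over the libraries was between 0.0672 (HDAC7) and 0.116 (HDAC5) on this scale. The median difference to the 11516 other genes was between 0.135 (HDAC7) and 0.161 (HDAC5). How easily profiles this flat find close matches among so many genes was not tested.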

How the data were processed

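mRNA of Kasumi-1 cells was sequenced in 3 control and 3 I13 libraries, made per the labels with a stranded TruSeq mRNA kit. The authors deposited FPKM values, which were used without further scaling. The submitters' processing notes name Trimmomatic, HISAT2, Cufflinks and HTSeq and the build hg38. Their roles, versions, the annotation and the strand setting are not stated in the sources used here.

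GENCODE 29 named 32244 of 32364 identifiers. With its exon lengths, 25770 of 27002 genes above 0 (95.4%) gave whole fragments within 0.01, and a common step of the values gave 1319 more. HDAC6 and HDAC8 were among the latter. Depth sets the precision, and intervals of fragment ratios are exact binomial ones for counting error. Replicates differed by more than counting noise (chi-square per gene from 2.89 to 7.71).

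limma 3.58.1 in R 4.3.3 was fitted to log2(FPKM + 0.1) with a variance trend, two-sided, with Benjamini-Hochberg adjustment over 18726 genes. Fold changes on this scale understate those of low genes. The alternative was limma's voom on the fragments of 13808 genes whose mean reached 10. Both were also run on simulated data of independent libraries without the library pair, and no support is drawn from that run here. The other alternatives changed the pseudocount (1 or 0.01), the filter (none, or a mean FPKM of 1) or the scaling (to the median, or by quantiles), or left out each library in turn. They also tried the replicate block, no trend, robust variances, a term for the library pair, and the 4 libraries alone. Genes were named by rule (all members, class I, genes overlapping a member, list genes with p under 0.05 or the highest level, nearest patterns). Overlapping genes of a few fragments or none, small RNAs among them, are not listed. Members and lists were chosen with earlier results of these data known. A few genes that the rule or the marker lists hold are not reported here.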

Additional observations from a re-analysis of the deposited data

How the results depend on the processing

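No member changed direction and none passed the adjusted p under any alternative that could be fitted. Leaving out 1 library moved the log2 fold change of HDAC9 between -0.62 and -0.33. The same range was -0.16 to -0.06 for HDAC6, -0.12 to -0.06 for HDAC7, -0.12 to -0.03 for HDAC4, -0.18 to -0.0007 for HDAC5, -0.23 to -0.03 for HDAC11 and 0.10 to 0.40 for HDAC10. HDAC5 was closest to 0 without control replicate 1. The unadjusted p of HDAC9 was under 0.05 in 3 of 17 alternatives, which were voom, limma without a trend and the fit without I13 replicate 3, and its adjusted p was between 0.432 and 1.000. Its log2 fold change was -0.17 with a pseudocount of 1 and -0.54 with 0.01. HDAC9, HDAC10 and HDAC11 had no value at a minimum FPKM of 1, and HDAC10 none by voom or without control replicate 3 or I13 replicate 1, where it was under the minimum. The difference in the class II and IV share was -1.85 percentage points and between -1.99 and -1.61 with 1 library left out.

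Over all genes, the count at an unadjusted p under 0.05 was 963. It was 582 with a minimum FPKM of 1 (fewer genes tested) and 1513 in the 4 libraries. The count at an adjusted p under 0.05 was 0. It was 9 without a variance trend and 5 by voom, where the cause was not tested, and with 1 library left out it was between 0 and 2, the latter without I13 replicate 1. With the replicate block these counts were 862 and 0, and the log2 fold change of HDAC9 was again -0.45. For libraries of the same number, the deviations from the group means had correlations of 0.320, -0.379 and -0.297 over 4133 genes. The highest correlation was 0.514, between control replicate 3 and I13 replicate 2. With few libraries and this pair among them, these values cannot show whether the numbers pair the samples.

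Depth limits HDAC10, at 4 to 15 fragments, and HDAC11, at 25 to 46.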
